A study of Homo sapiens with 18 samples.

Results

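A set of 10 genes is known for its part in resistance or sensitivity to PARP inhibitors (PARPi). It was followed in 18 RNA-seq libraries labelled as HCC1937 breast cancer cells. The genes were TP53BP1, RIF1, MAD2L2, SHLD1, SHLD2, SHLD3, SLFN11, SLFN5, DYNLL1 and ABCB1. They were chosen by name, by matching the Ensembl identifier of each row of the raw count matrix to these symbols, and all 10 were among the 35044 genes of the matrix. HCC1937 is a triple-negative line that carries a mutated BRCA1. The libraries were labelled HCC1937 carrying an empty vector (EV) or overexpressing wild-type BRCA1 (OE-BRCA1, written OE here), each at 0, 12 and 24 h of the PARPi olaparib, with 3 libraries in each of the 6 conditions. The study's methods give olaparib at 10 µmol/L. The sample titles set the groups, since the labels list olaparib as the treatment and WT as the genotype also for libraries titled EV at 0 h. No label said whether the 3 libraries of a condition came from separate cultures, or whether either line was 1 clone, so p-values measured only the spread between these libraries.

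When a chromosome breaks, 53BP1 (TP53BP1) binds the chromatin beside the break and calls RIF1, which in turn calls shieldin, the complex of SHLD1, SHLD2, SHLD3 and REV7 (MAD2L2). Shieldin shields the broken ends from being cut back into the single strands that BRCA1-dependent homologous recombination needs, so loss of any of these factors is known to make BRCA1-deficient cells resistant to PARPi. DYNLL1, a dynein light chain, also limits end cutting. SLFN11 blocks stressed replication forks and is known to make cells sensitive to PARPi, SLFN5 is an interferon-induced relative of it, and ABCB1 encodes P-glycoprotein, a pump that exports olaparib.

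The stretches in front of the start sites of SLFN11 and ABCB1 are shown because both genes were close to or at 0 in 1 of the lines and not in the other. RefSeq (GRCh38.p14) held a promoter window for 7 of the 10 genes, and none was held for SHLD1, SHLD2 and SLFN5. Each line gives the 250 bases before a start, 5′ to 3′ on the gene's own strand, which is the minus strand for both genes. Capitals mark GGGCGG or CCAAT on either strand (CCGCCC and ATTGG are their reverse complements), the letters of a GC box and a CCAAT box.
SLFN11, chr17:35373622-35373871: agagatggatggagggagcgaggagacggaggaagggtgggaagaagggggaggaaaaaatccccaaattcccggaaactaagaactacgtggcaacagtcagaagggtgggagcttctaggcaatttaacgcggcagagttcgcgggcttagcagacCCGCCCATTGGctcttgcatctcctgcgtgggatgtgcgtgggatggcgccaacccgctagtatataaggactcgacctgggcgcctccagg
ABCB1, inner start, chr7:87600885-87601134: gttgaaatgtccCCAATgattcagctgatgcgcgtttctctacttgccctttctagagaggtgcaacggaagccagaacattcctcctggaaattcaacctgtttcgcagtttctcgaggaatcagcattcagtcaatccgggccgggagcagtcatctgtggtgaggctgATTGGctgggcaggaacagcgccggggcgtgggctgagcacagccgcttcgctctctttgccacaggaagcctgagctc
ABCB1, outer start, chr7:87713296-87713545: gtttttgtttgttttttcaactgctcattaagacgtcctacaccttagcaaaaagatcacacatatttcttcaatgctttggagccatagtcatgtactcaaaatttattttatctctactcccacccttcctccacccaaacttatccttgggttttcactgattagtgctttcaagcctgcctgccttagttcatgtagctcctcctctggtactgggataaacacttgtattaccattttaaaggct
The stretch before SLFN11 held 1 GC box beside 1 CCAAT box, on the reverse strand. The inner start of ABCB1 was preceded by 2 CCAAT boxes and the outer start by neither motif. In the full windows, which run on to 50 bases after the start, SLFN11 had 18 CpG sites, the inner ABCB1 start 16 and the outer start 1, against a median of 14 over 35116 promoters. GGGCGG was found in 45% and CCAAT in 34.6% of those promoters. The core of the interferon-stimulated response element was found in 3.57% of promoters and, among the members, only in the window of SHLD3.

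Before any comparison between the lines, the labels were set against markers of epithelial and basal breast cells, which HCC1937 is known to express. EPCAM averaged 0.00685 CPM (counts of a gene per 1000000 counts of the library) in the EV libraries, which held 1 count over all 9, and 303.6 CPM in the OE libraries. KRT5 averaged 0.0554 and 1436 CPM and CDH1 0.786 and 414.7 CPM, in that order. Other markers of the same lists were high in both, with KRT8 at 1917 and 3375 CPM, KRT18 at 911.3 and 1019 CPM and EGFR at 175.0 and 296.5 CPM. Of 5 epithelial and 5 basal markers, 2 and 2 reached 1 CPM in the EV libraries, against 5 and 5 in the OE libraries. Summed, the epithelial markers came to 2421 to 3165 CPM in EV and 3979 to 6521 CPM in OE libraries, and the basal markers to 145.0 to 205.2 and 2741 to 4425 CPM. Of 7 measured markers of other cell types, 3 reached 1 CPM in each line, with summed levels of 99.3 to 156.2 CPM in EV and 19.4 to 33.0 CPM in OE libraries. COL1A1 (113.7 CPM in EV and 8.79 in OE) and PDGFRB (8.91 and 0.0827) were higher in EV libraries. COL1A2 was near the floor in both lines and did not follow COL1A1 (0.0547 in EV and 0.110 in OE). CD68 (0.0627 and 0.0754) and VWF (0.247 and 0.552) were also low in both. PECAM1 (1.845 and 15.61) and PTPRC (0 and 1.084) were higher in OE libraries. BRCA1, the overexpressed gene, was 117.6 ± 7.70 CPM in EV and 138.5 ± 24.0 CPM in OE untreated libraries (SD, n = 3 each), a log2 difference of 0.24 with an adjusted p of 0.0654 by edgeR's quasi-likelihood test. The log2 difference was 0.16 (adjusted p = 0.197) at 12 h and 0.77 (adjusted p = 3.17e-06) at 24 h. Across genes, log2 CPM correlated at 0.973 to 0.989 between libraries of 1 line and at 0.698 to 0.725 between the lines. By the threshold of 1 CPM, the EV libraries therefore went against the labelled cells in 3 of the 5 epithelial and 3 of the 5 basal markers. KRT17, a basal marker above that threshold, was also far lower in EV, at 3.51 against 1729 CPM in OE libraries. EV and OE name labels below, and no difference between them can be told apart from whatever else separates these cells, or be credited to BRCA1. Total counts ran from 15081973 to 17571922 per library.

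All 10 genes passed the filter on low counts, SHLD2 and ABCB1 through the EV libraries and SLFN11 through the OE libraries. Levels of different genes were compared per kilobase of exon, with all annotated exons of a gene joined. That length can exceed the length of the transcripts present, so the order of genes is approximate. On this scale DYNLL1 was the most abundant in untreated EV cells at 59.4 ± 0.728 CPM per kb (SD, n = 3). SHLD2 (19.95 ± 0.819), MAD2L2 (11.8 ± 0.716), RIF1 (8.33 ± 0.943), ABCB1 (7.07 ± 0.397), TP53BP1 (5.96 ± 0.190) and SLFN5 (3.27 ± 0.176) followed. SHLD3 (2.02 ± 0.191), SHLD1 (0.545 ± 0.218) and SLFN11 (0.0104 ± 0.0180) were the lowest. RIF1 and ABCB1 were the only neighbours in this order whose ranges of mean ± SD overlapped. The subunits of shieldin were thus far apart in EV cells, with SHLD2 and MAD2L2 high and SHLD3 and SHLD1 low. In untreated OE cells the order was DYNLL1 (78.0 ± 19.5 CPM per kb), MAD2L2 (16.1 ± 3.82), RIF1 (5.41 ± 1.63), TP53BP1 (4.62 ± 0.669), SHLD1 (2.04 ± 0.434), SLFN5 (1.90 ± 0.353), SHLD3 (0.790 ± 0.0944) and SLFN11 (0.148 ± 0.0774), with SHLD2 and ABCB1 at no count. There RIF1 and TP53BP1, and SHLD1 and SLFN5, overlapped within mean ± SD. SHLD1 stood below SHLD3 in EV and above it in OE cells.

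**Figure D1:**
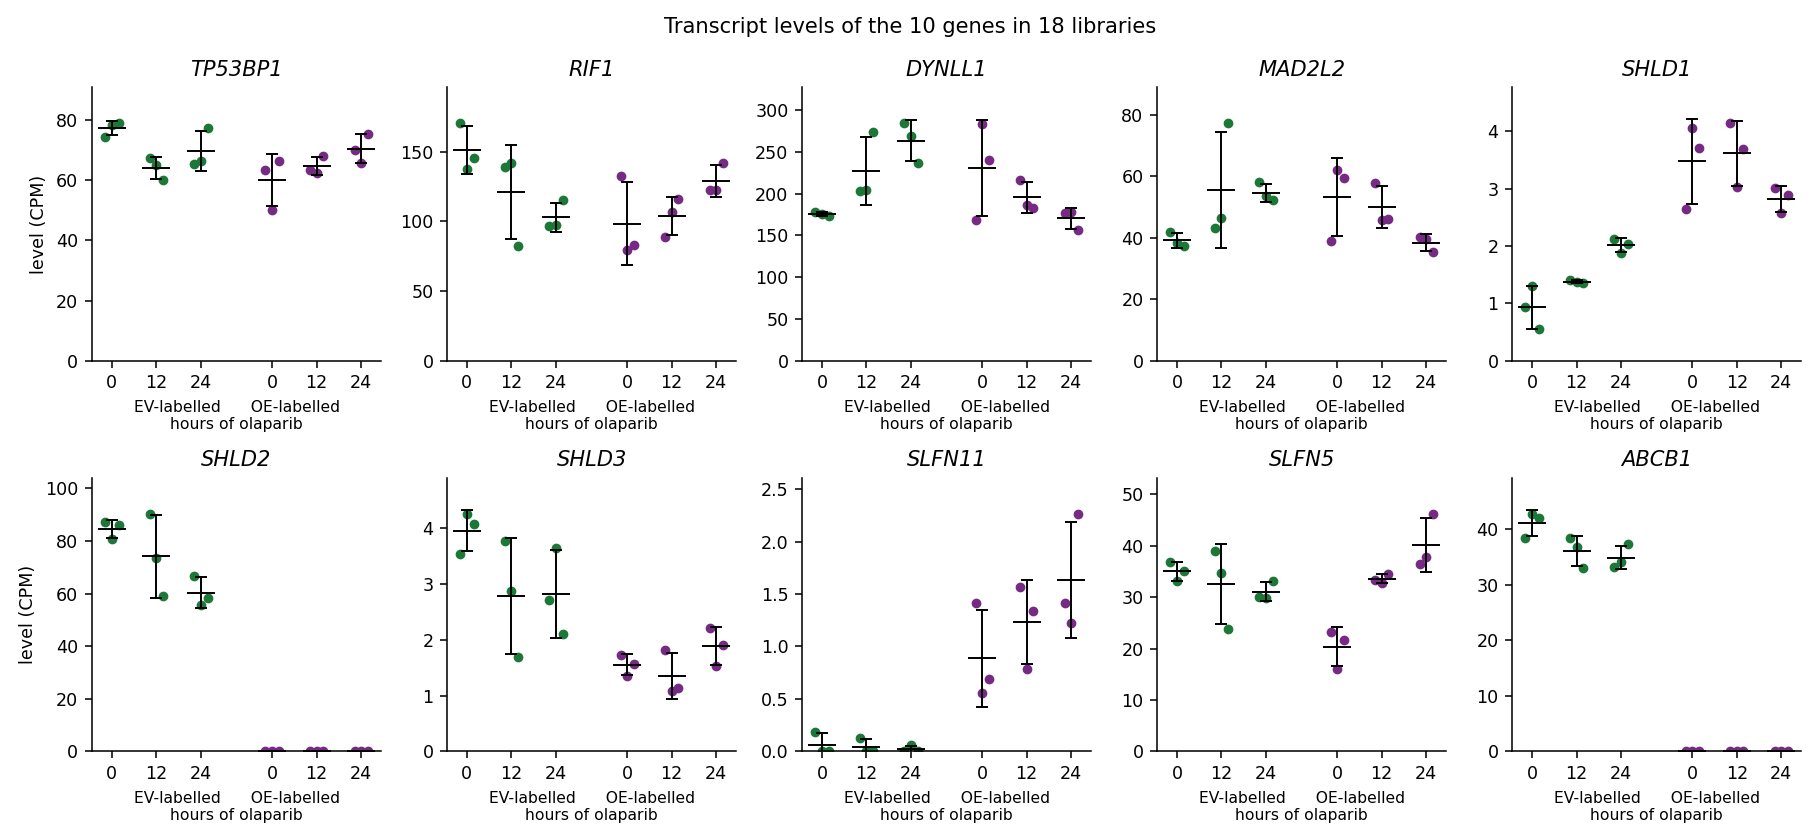
Level of each gene in CPM (linear axis from 0) in every library, by hours of olaparib, with EV-labelled libraries in green and OE-labelled libraries in purple. Points are libraries and bars are the mean ± SD of 3. SHLD2 and ABCB1 lie at 0 in all 9 OE libraries, SLFN11 lies at or below 0.186 CPM in all 9 EV libraries, and SLFN5 rises with time in OE libraries.

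The first question was how the 2 lines differed without drug. SHLD2, ABCB1 and SLFN11, which passed the filter through 1 line alone, had to differ and are not counted here. All 7 other genes passed an adjusted p of 0.05 in untreated cells, 3 higher and 4 lower in OE, against 72.7% of all 18335 genes tested (39.4% higher and 33.3% lower). At 12 h 2 of the 7 passed (background 72.9%), and at 24 h 3 of the 7 (background 73.9%). A call between these lines was therefore the usual outcome for any gene. Over these 7 genes, the median log2 difference was -0.37 untreated, -0.16 at 12 h and 0.01 at 24 h, beside 0.11, 0.08 and 0.12 over all genes tested.

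SHLD2, the subunit that holds shieldin together and binds single-stranded DNA, was counted in the EV libraries alone. Its level was 87.1, 80.7 and 86.2 CPM in the EV libraries at 0 h, 90.4, 73.4 and 58.9 CPM at 12 h, and 66.8, 55.6 and 58.5 CPM at 24 h. It had no count in any OE library. In such bulk libraries, fewer cells with a transcript and less of it per cell cannot be told apart. Against a floor of 3 counts over a condition, SHLD2 was at least 1364-fold higher in EV at 0 h, at least 1192-fold at 12 h and at least 982-fold at 24 h. SHLD2 (chr10:87094161-87191468, plus strand, GRCh38) was not alone in this. From MMRN2 to ATAD1, at 86935540 to 87841343 on the same chromosome, all 13 genes at 1 CPM or more in either line were below 0.1 CPM on average in OE libraries. No OE count was found for 9 of these 13, and all together they had 18 counts in OE and 90886 in EV libraries. The stretch as described covered 0.906 Mb and included GLUD1, MINPP1 and PAPSS2. Genes beyond ATAD1 are not reported here, and ATAD1 itself had no OE count, so the far end of the stretch was not determined. BMPR1A, the gene before MMRN2, had OE counts at 20.1 CPM (68.8 in EV). Genes at 10 CPM or more in EV with no count in OE were rare, 51 of 9472 (0.538%), and 8 of the 51 were on chromosome 10. The stretch was picked out after its values were seen. SHLD2 overlaps GLUD1 on the opposite strand over 10.9% of its exons, and its pseudogenes SHLD2P1, SHLD2P3 and SHLD2P2 took 248, 61 and 4 counts beside its own 10609.

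**Figure D2:**
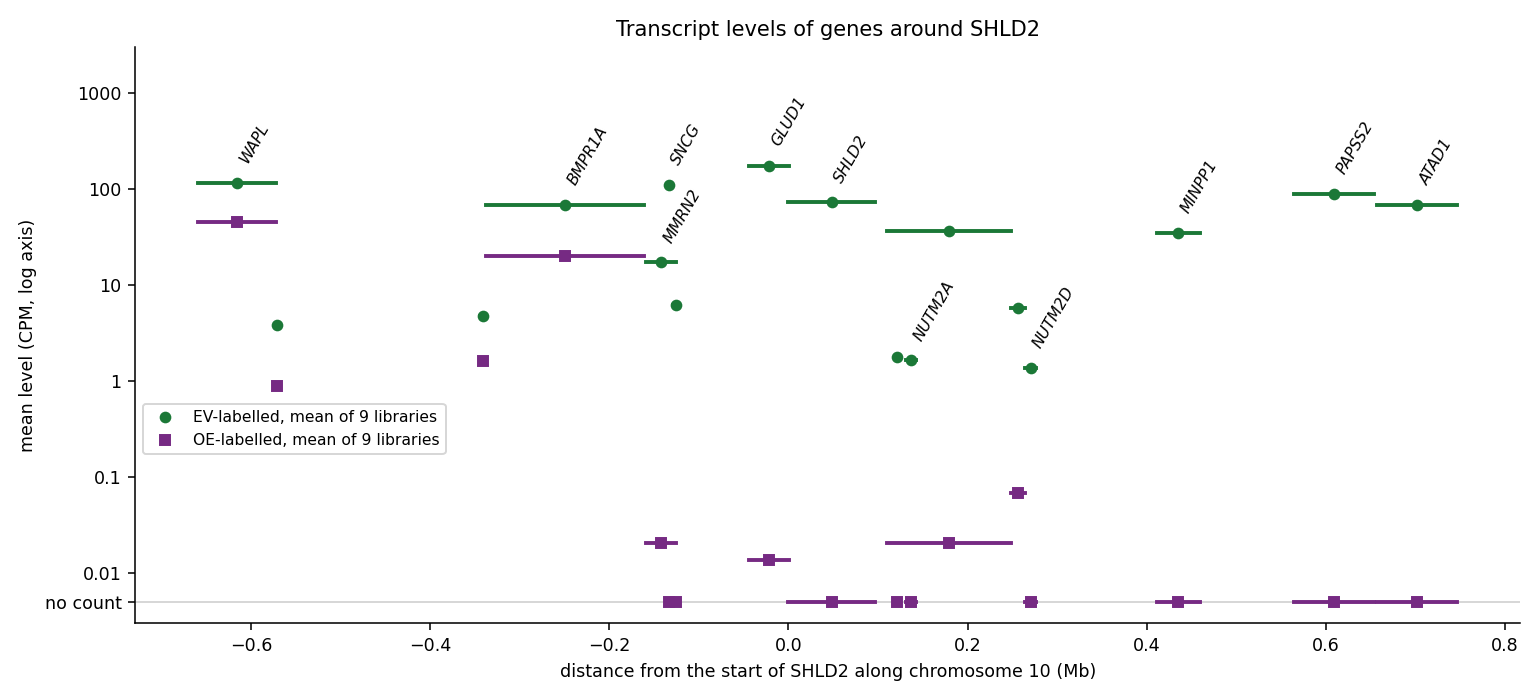
Mean level (CPM, log axis with "no count" as the lowest tick) of genes at 1 CPM or more in either line against distance from the start of SHLD2 in Mb, EV-labelled libraries as green circles and OE-labelled libraries as purple squares, each a mean of 9 libraries. Horizontal bars span the gene, and protein-coding genes are named. From MMRN2 to ATAD1 all 13 genes sit below 0.1 CPM in OE libraries, and BMPR1A before them does not. Genes beyond ATAD1 are not drawn, so the far end of the stretch is not shown.

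The other subunits of shieldin were counted in both lines, at low numbers for SHLD1 and SHLD3. SHLD1 had 15, 21 and 9 counts in the untreated EV libraries and 43, 66 and 59 in the untreated OE libraries, with no overlap. SHLD1 was 3.72-fold higher in OE untreated (log2 1.90, SE 0.27, adjusted p = 1.98e-06) and 2.61-fold higher at 12 h (adjusted p = 5.40e-05). At 24 h the log2 difference was 0.48 with an adjusted p of 0.0791, and after removal of each library's trend with GC content and length it was 0.58 and called (adjusted p = 0.0281). SHLD3, which joins shieldin to RIF1-bound chromatin, went the other way. It had 57, 69 and 66 counts in untreated EV and 28, 22 and 25 in untreated OE libraries, again with no overlap. Its log2 difference was -1.35 (SE 0.29, adjusted p = 0.000278) untreated and -1.04 at 12 h (adjusted p = 0.00407). The 24 h value of -0.58 missed the threshold (adjusted p = 0.0725) and was called without EV replicate 3 (-0.75, adjusted p = 0.0331) and after removal of the trend (-0.80, adjusted p = 0.0136). SHLD3 shares 17.4% of its exons with TRAPPC13 on the same strand. MAD2L2, or REV7, had a log2 difference of 0.45 (SE 0.18, adjusted p = 0.0351) untreated, but after removal of the trend it was 0.17 (adjusted p = 0.132). At 24 h the MAD2L2 difference was -0.51 (adjusted p = 0.0171), or -0.20 (adjusted p = 0.0739) without the trend. Both MAD2L2 calls were lost without single libraries, at differences of 0.32 to 0.43 untreated (EV replicate 2 or 3, OE replicate 2 or 3) and of -0.47 and -0.45 at 24 h (EV replicate 1, OE replicate 3).

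The upstream factors differed less. TP53BP1 was 74.6, 78.6 and 79.1 CPM in untreated EV and 63.5, 50.1 and 66.4 CPM in untreated OE libraries, with every OE library below every EV library. The log2 difference was -0.37 (SE 0.11, adjusted p = 0.00411), and -0.17 (adjusted p = 0.0215) after removal of the GC and length trend. It shares 28.7% of its exons with TUBGCP4 on the opposite strand, so the counts of the 2 genes could not be fully told apart. RIF1 was 170.6, 137.8 and 145.6 CPM in untreated EV and 132.4, 79.4 and 82.9 CPM in untreated OE libraries, a log2 difference of -0.62 (SE 0.19, adjusted p = 0.0053), or -0.35 (adjusted p = 0.000155) without the trend. Neither TP53BP1 nor RIF1 was called between the lines at 12 or 24 h in the fit to all libraries. RIF1 was called at 12 h without EV replicate 3 (-0.43, adjusted p = 0.0253) and after removal of the trend (-0.17, adjusted p = 0.0407). At 24 h its difference was 0.33, which was called when the compared conditions were fitted alone (0.34, adjusted p = 0.00326) and was 0.00 after removal of the trend. DYNLL1 was 0.39 higher on the log2 scale in untreated OE cells (SE 0.15, adjusted p = 0.0208) and had a log2 difference of -0.63 at 24 h (adjusted p = 0.000622). At 12 h DYNLL1 was called only after removal of the trend (-0.23, adjusted p = 0.0483). The untreated DYNLL1 call rested on 3 libraries, since without EV replicate 3, OE replicate 2 or OE replicate 3 at 0 h the difference was 0.38, 0.22 or 0.36 and was not called.

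The Schlafen genes lie side by side on chromosome 17. SLFN11 had 6 counts in all 9 EV libraries and 182 in the 9 OE libraries. In OE libraries there were 23, 9 and 11 counts at 0 h, 25, 13 and 21 at 12 h, and 23, 20 and 37 at 24 h, and no EV library had more than 3. Its pooled level was 0.0413 CPM in EV (95% Poisson interval 0.0151 to 0.0898) and 1.25 CPM in OE (1.08 to 1.45), an interval that covers counting error only. The ratio was 14.4 at 0 h (95% interval 4.6 to 72.4), 28.4 at 12 h (7.51 to 239.8) and 82.8 at 24 h (14.4 to 3312), and these wide intervals overlapped. SLFN11 was therefore near the detection limit in EV and low, though present in every library, in OE cells. Per kilobase it stood below every other detected member in both lines. SLFN5, the gene next to SLFN11, was 36.9, 33.1 and 35.1 CPM in untreated EV and 23.3, 16.1 and 21.7 CPM in untreated OE libraries, a log2 difference of -0.78 (SE 0.16, adjusted p = 0.000137). Of the relatives beside them, SLFN13 had 4 counts in EV and 1561 in OE libraries, whereas SLFN12 had 1586 and 1297.

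ABCB1 (chr7:87503633-87713323, minus strand) was the second member seen only in the EV libraries. At 0 h its level was 38.4, 42.8 and 42.0 CPM, at 12 h it was 38.4, 36.8 and 33.0 CPM, and at 24 h it was 33.2, 34.1 and 37.2 CPM. No OE library had a count. ABCB1 was at least 662-fold higher in EV at 0 h, at least 578-fold at 12 h and at least 567-fold at 24 h. Unlike SHLD2, it was not in a run of genes without OE counts, as the neighbours DMTF1 (56.2 CPM in EV and 42.8 in OE), TMEM243 (27.2 and 20.3), SLC25A40 (17.6 and 25.3) and DBF4 (32.9 and 29.3) were counted in both lines. The reverse pattern stood nearby, as CROT and TP53TG1 had no count in EV and averaged 11.7 and 2.75 CPM in OE.

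The next question was what olaparib changed within each line. At 12 h in EV libraries none of the 10 members was called by edgeR, against 0.0436% of all genes, although 3 had an unadjusted p below 0.05 and DESeq2 called none as well. At 24 h in EV libraries 3 were called, 2 higher and 1 lower, against a background of 13.7% (8.62% higher and 5.12% lower). In OE libraries 1 was called at 12 h (background 2.31%) and 1 at 24 h (background 8.26%), SLFN5 both times. The median log2 fold change over members with enough counts was -0.19 and -0.17 in EV (n = 9 genes) and 0.07 and 0.26 in OE (n = 8 genes) at 12 and 24 h, beside 0.00, 0.00, 0.00 and 0.02 over all genes.

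SLFN5 rose in the OE libraries. From 23.3, 16.1 and 21.7 CPM at 0 h it went to 33.4, 32.8 and 34.6 CPM at 12 h and to 36.6, 37.8 and 46.3 CPM at 24 h. All 6 treated libraries lay above all 3 untreated libraries. The change was 1.65-fold at 12 h (log2 0.72, SE 0.16, adjusted p = 0.0111) and 1.98-fold at 24 h (log2 0.98, SE 0.16, adjusted p = 0.000378). After removal of the GC and length trend the changes were 0.72 and 0.80 and both were called. The 12 h call was lost without OE replicate 2 at 0 h (0.58, adjusted p = 0.0822) or OE replicate 3 at 12 h (0.70, adjusted p = 0.055), and the 24 h call was kept without any 1 library. In EV libraries SLFN5 was 39.0, 34.7 and 23.9 CPM at 12 h and 30.1, 29.8 and 33.2 CPM at 24 h, with log2 changes of -0.11 and -0.17 that were not called. Its lower start in OE cells was followed by a log2 difference between the lines of 0.05 at 12 h (adjusted p = 0.798) and of 0.37 at 24 h (adjusted p = 0.0341). The latter call was lost after removal of the trend (0.11, adjusted p = 0.308), with no filter on low counts (0.32, adjusted p = 0.0593) and without EV replicate 1 or 2 (0.35 each) or OE replicate 3 (0.26) at 24 h. SLFN11, with 43, 59 and 80 counts in OE libraries at 0, 12 and 24 h, had log2 changes of 0.46 (SE 0.52, adjusted p = 0.817) and 0.88 (SE 0.51, adjusted p = 0.311). A change of SLFN11 was therefore not called. Its pooled OE level was 0.889 CPM at 0 h (95% Poisson interval 0.644 to 1.198) and 1.64 CPM at 24 h (1.298 to 2.037). These intervals did not overlap, but they leave out the spread between libraries.

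DYNLL1 rose in the EV libraries, from 177.8, 176.0 and 173.5 CPM at 0 h through 202.7, 204.5 and 273.7 CPM at 12 h to 284.5, 269.3 and 236.4 CPM at 24 h. Every treated EV library was above every untreated one. The change at 24 h was 1.5-fold (log2 0.58, SE 0.15, adjusted p = 0.0147), or 0.43 (adjusted p = 0.00926) after removal of the GC and length trend. In OE libraries DYNLL1 was 168.6, 283.0 and 240.0 CPM untreated, 216.8, 186.2 and 182.9 CPM at 12 h, and 177.1, 178.1 and 155.9 CPM at 24 h. The groups overlapped, and the 24 h change of -0.44 was not called (SE 0.15, adjusted p = 0.0693), though it was called by DESeq2 (adjusted p = 0.0361), with no filter on low counts (adjusted p = 0.00116) and after removal of the trend (-0.43, adjusted p = 0.00594). The EV call was lost without EV replicate 1 or 3 at 0 h (0.59 and 0.56) or replicate 1 or 2 at 24 h (0.53 and 0.56), at adjusted p of 0.0595 to 0.0667.

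Within shieldin, SHLD1 and SHLD2 moved in opposite directions in EV libraries at 24 h. SHLD1 had 15, 21 and 9 counts at 0 h, 22, 22 and 20 at 12 h, and 36, 32 and 34 at 24 h, and in CPM the 3 times did not overlap. Its 24 h change was 2.16-fold (log2 1.11, SE 0.28, adjusted p = 0.015), or 0.94 (adjusted p = 0.0233) without the GC and length trend. SHLD2 fell by 0.49 on the log2 scale (log2 -0.49, SE 0.14, adjusted p = 0.0364), or to -0.30 (adjusted p = 0.0205) without the trend. All 3 SHLD2 libraries at 24 h lay below the 3 at 0 h. The SHLD1 call was lost without EV replicate 1 at 0 h (1.11), EV replicate 3 at 0 h (0.83) or EV replicate 1 at 24 h (1.08), at adjusted p of 0.0565 to 0.0822. The SHLD2 call was lost without any 1 of the 6 libraries, with changes of -0.57 to -0.44 and adjusted p of 0.0607 to 0.136. In OE libraries SHLD1 had 66, 50 and 58 counts at 12 h and 49, 42 and 47 at 24 h, a log2 change of -0.30 at 24 h that was not called (adjusted p = 0.478). SHLD3 was not called in either line, with 24 h changes of -0.49 (SE 0.27) in EV and 0.28 (SE 0.31) in OE.

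RIF1, MAD2L2 and TP53BP1 were called at neither time in either line by edgeR with all libraries, though other fits called RIF1 and MAD2L2. RIF1 was 139.2, 141.5 and 82.5 CPM at 12 h and 96.3, 97.7 and 115.0 CPM at 24 h in EV, and 88.5, 106.9 and 115.8 CPM and then 122.4, 122.5 and 142.2 CPM in OE libraries. All 24 h EV libraries were below all untreated ones, with a log2 change of -0.56 (SE 0.19, adjusted p = 0.052). DESeq2 called it (adjusted p = 0.0286), as did edgeR with no filter on low counts (0.000326), with a minimum of 10 counts (0.0425) and with the compared conditions alone (0.00033), whereas after removal of the trend it was -0.16 (adjusted p = 0.138). In EV libraries MAD2L2 started at 41.9, 38.4 and 37.3 CPM, was 43.0, 46.4 and 77.3 CPM at 12 h and ended at 58.0, 53.4 and 52.4 CPM, a 24 h change of 0.48 (SE 0.18, adjusted p = 0.0836). It was called with no filter (0.49, and 0.50 at 12 h) and with the compared conditions alone (0.47), and was 0.07 after removal of the trend. In OE libraries MAD2L2 was 38.8, 62.0 and 59.3 CPM, then 57.8, 45.7 and 46.1 CPM, then 40.4, 39.5 and 35.2 CPM, a 24 h change of -0.48 (SE 0.18, adjusted p = 0.114) that was called with no filter (-0.52) and after removal of the trend (-0.29, adjusted p = 0.0471). The EV library of replicate 3 at 12 h held both the lowest RIF1 and the highest MAD2L2 level of its line. Among untreated OE libraries, replicate 1 stood apart with the highest RIF1 and the lowest MAD2L2 and DYNLL1 level, and without it the 24 h changes in OE of RIF1 (0.67, adjusted p = 0.0112), MAD2L2 (-0.66, adjusted p = 0.0119) and DYNLL1 (-0.62, adjusted p = 0.00202) were called. TP53BP1 stayed between 60.2 and 79.1 CPM in EV and between 50.1 and 75.5 CPM in OE libraries. ABCB1 had 24 h changes in EV of -0.24 (SE 0.12, adjusted p = 0.194), and its 9 libraries spanned 33.0 to 42.8 CPM.

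**Figure D3:**
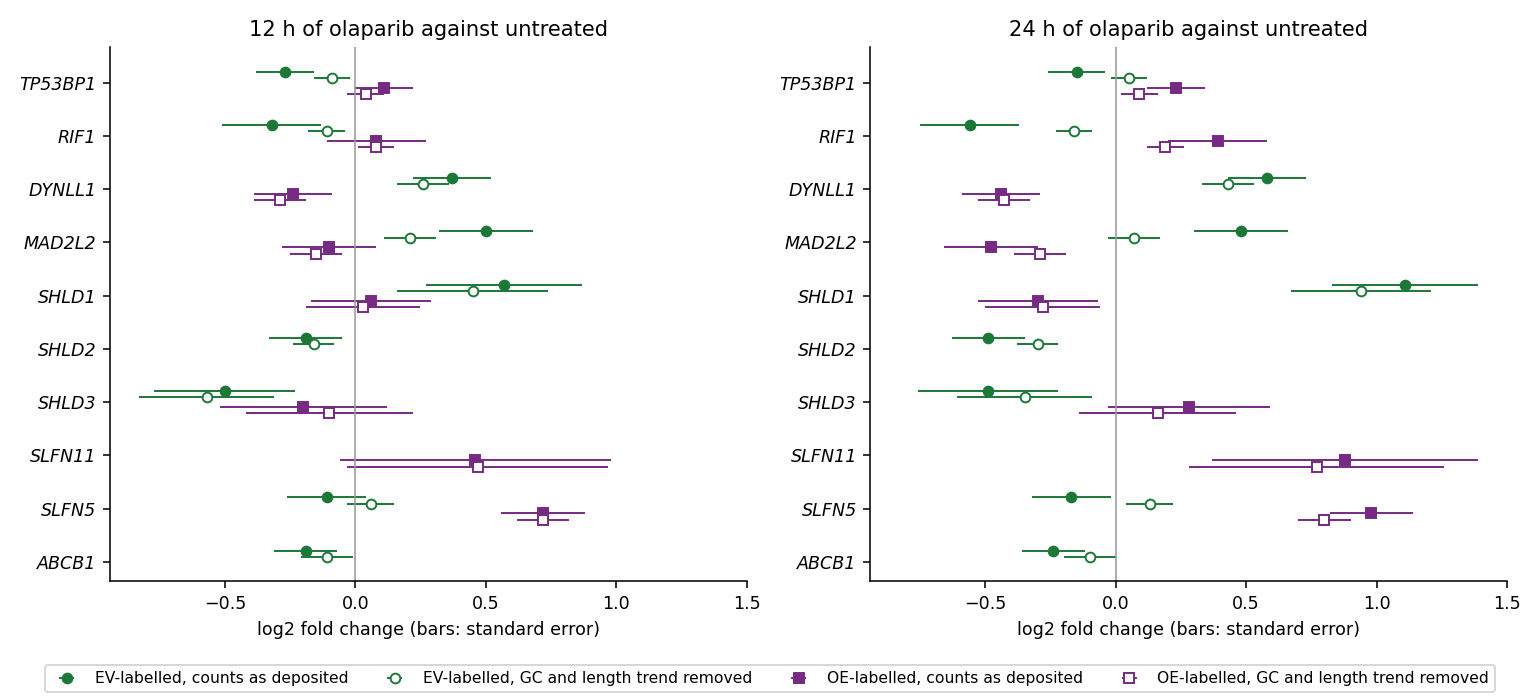
Log2 fold change of each gene after 12 h (left) and 24 h (right) of olaparib against untreated cells of the same label, with bars of 1 standard error. Filled symbols are from the counts as deposited and open symbols after removal of each library's GC and length trend. At 24 h the EV (green) and OE (purple) values of the deposited counts lie on opposite sides of 0 for all 7 genes drawn in both lines. The share of all genes with opposite signs is not given here, so this is not shown to be particular to these genes. After removal of the trend, those of TP53BP1 (0.05 in EV and 0.09 in OE) and SLFN5 (0.13 and 0.80) lie on the same side. No fold change is drawn where a group had 3 counts or fewer.

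The difference between the 2 responses was then tested itself, as the response in OE minus the response in EV. At 12 h no member was called by edgeR (background 0.518%), while 4 had an unadjusted p below 0.05 and DESeq2 called SLFN5 alone (0.83, adjusted p = 0.0215). SLFN5 and DYNLL1 were both called with no filter (0.82 and -0.62) and after removal of the trend (0.66 and -0.55). Without OE replicate 1 at 0 h edgeR called SLFN5 (0.94) and DYNLL1 (-0.79), and without EV replicate 1 at 12 h SLFN5 (0.98). At 24 h 5 members were called against a background of 19.4%, 2 of them higher (background 8.16%) and 3 lower (background 11.2%). SLFN5 had a difference of 1.16 (SE 0.22, adjusted p = 0.00203) and RIF1 of 0.95 (SE 0.26, adjusted p = 0.0169). SHLD1 had a difference of -1.41 (SE 0.36, adjusted p = 0.0112), DYNLL1 of -1.02 (SE 0.21, adjusted p = 0.00294) and MAD2L2 of -0.95 (SE 0.26, adjusted p = 0.015). The response of DYNLL1, MAD2L2 and SHLD1 was thus the higher in EV, and that of SLFN5 and RIF1 the higher in OE libraries. The RIF1 call was lost without EV replicate 1 (0.86), OE replicate 2 (0.81) or OE replicate 3 (0.84) at 0 h, and that of MAD2L2 without OE replicate 2 at 0 h (-0.83). TP53BP1 had a difference of 0.38 (SE 0.15, adjusted p = 0.0786), which was called without EV replicate 3 at 24 h (0.47) or OE replicate 1 at 0 h (0.42), and SHLD3 of 0.76 (SE 0.41, adjusted p = 0.198).

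Levels of RIF1, MAD2L2 and DYNLL1 moved with a property of the libraries, and SHLD1 was not followed in this way. For each library, Spearman's rho was taken across genes between GC content and the gene's log2 CPM relative to the mean of its line. It was negative in untreated EV libraries (-0.579 to -0.226) and positive in EV libraries at 24 h (0.278 to 0.608). In OE libraries it ran from -0.577 to 0.543 untreated and was negative at 24 h (-0.439 to -0.285). The members' own GC contents lay between 35.8% (SHLD3) and 63.4% (MAD2L2), with RIF1 at 37.3%, SHLD2 at 37.9%, SLFN5 at 39.1%, SHLD1 at 51.6% and DYNLL1 at 52.5%. RIF1 was above its line's mean in all 9 libraries with a negative rho and below it in 8 of the 9 with a positive rho. MAD2L2 and DYNLL1 were below their line's mean in all 9 libraries with a negative rho and above it in 7 of the 9 others. SLFN5 was above its line's mean in 8 of the 9 libraries with a negative rho and in 4 of the 9 others. With the trend of each library removed, the 24 h difference between responses was 0.67 for SLFN5 (adjusted p = 0.00177), -0.86 for DYNLL1 (adjusted p = 0.000454), -1.22 for SHLD1 (adjusted p = 0.0173) and 0.35 for RIF1 (adjusted p = 0.0189). For MAD2L2 it was -0.37 and no longer called (adjusted p = 0.0761). Whether the trend came from the cells or from library preparation was not tested, and its removal also takes away any change of the cells that follows GC content.

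**Figure D4:**
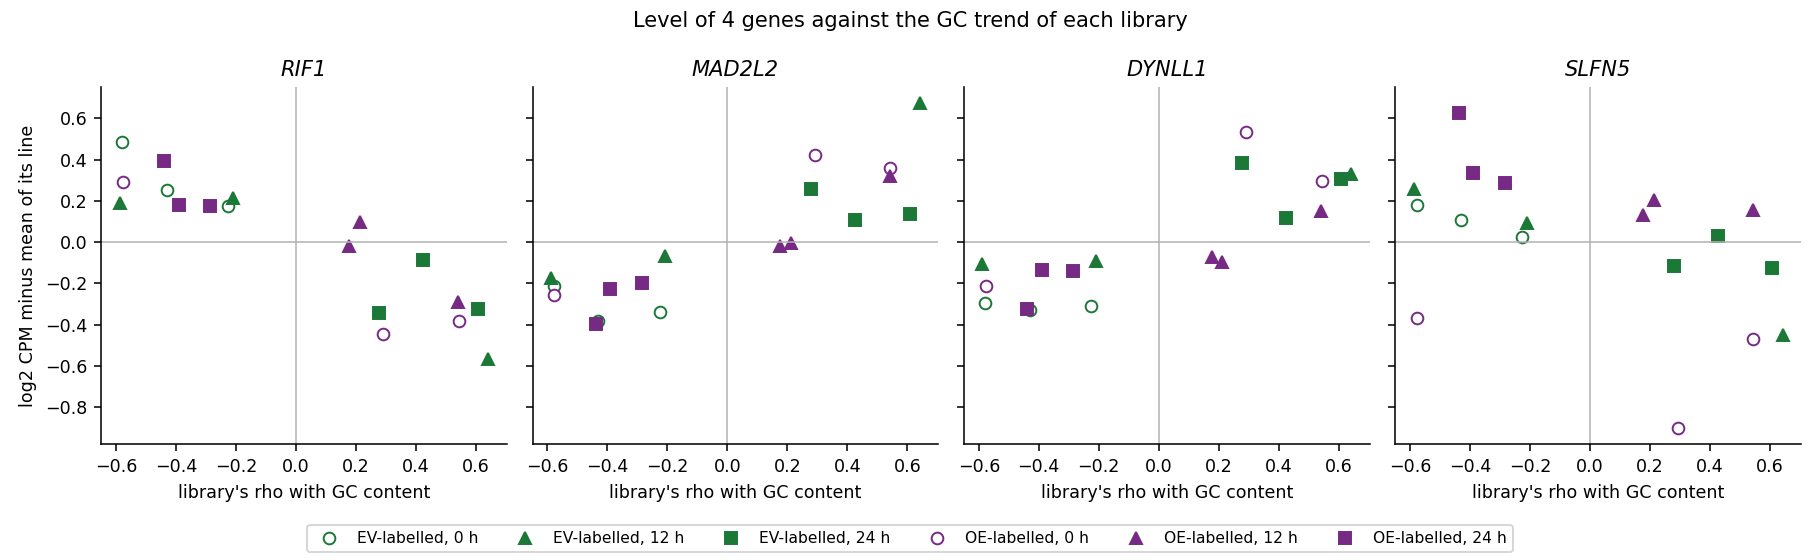
Log2 CPM of 4 genes minus the mean of their line (vertical axis) against the library's rho between GC content and expression (horizontal axis, no unit), 1 point per library, EV green and OE purple, with the shape giving the hours of olaparib. RIF1 falls and MAD2L2 and DYNLL1 rise along the axis in both lines. SLFN5 is above its line's mean in 8 of 9 libraries at negative and 4 of 9 at positive rho, and in untreated OE libraries it is below it at either sign.

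The wider pathway was read from 7 lists with 64 genes, of which 60 could be tested. At 12 h none was called in either line by edgeR, with 11 unadjusted p-values below 0.05 in EV and 4 in OE libraries, where DESeq2 called 1 each. At 24 h 3 of the 60 were higher and 10 lower in EV libraries (21.7% called against 13.7% of all genes), and 6 were higher and 6 lower in OE libraries (20% against 8.26%). Of the up to 3 called genes of each list with the largest 24 h change, 12 in each line, 2 in EV and 3 in OE were called in every fit that left out 1 library, and 9 and 12 after removal of the GC and length trend. For the difference between responses, 10 of 15 such genes were called in every fit that left out 1 library and 10 of 15 after removal of the trend. Among 12 factors that bring 53BP1 to chromatin, H2AX, the histone marked around breaks, was 0.51 higher on the log2 scale in EV at 24 h (adjusted p = 0.0277), but -0.03 without the trend. NUDT16L1 (TIRR), which binds and holds back 53BP1, changed by -0.73 in OE (adjusted p = 0.032). Its difference between responses was -1.29 (adjusted p = 0.00535), or -0.59 (adjusted p = 0.007) without the trend.

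Of 14 tested genes that act with or against shieldin in end protection, 3 were lower in EV at 24 h (5.12% of all genes). After removal of the trend 2 were lower and 1 higher, and the share of all genes called in that fit is not given here. PAXIP1 (PTIP), a partner of 53BP1, changed by -0.54 (adjusted p = 0.0101), and REV3L, the catalytic subunit that REV7 serves in DNA polymerase zeta, by -0.61 (adjusted p = 0.0405), or -0.30 (adjusted p = 0.0456) without the trend. POLA1, of the polymerase that fills in protected ends, changed by -0.33 (adjusted p = 0.041), which was -0.17 and not called without the trend (adjusted p = 0.0678). The median of the list was -0.23 in EV and 0.22 in OE, beside 0.00 and 0.02 over all genes. The response at 24 h was higher in OE than in EV for 5 of the 14 (8.16% of all genes) and lower for 1 (11.2%). The counts were the same after removal of the trend, where no background is given. The median difference of the list was 0.52 beside 0.05 over all genes. All medians of this list are from the counts as deposited, and none is given without the trend. REV3L differed by 1.12 (adjusted p = 0.00776), PRIM2 by 0.77 (adjusted p = 0.00877) and PAXIP1 by 0.73 (adjusted p = 0.00739), or by 0.64, 0.51 and 0.46 without the trend, all called. Between the untreated lines, POLA1 (log2 difference -2.05) and TRIP13, the ATPase that takes REV7 out of shieldin (-1.54), were lower in OE cells, and DYNLL2, the close relative of DYNLL1, was higher (1.11).

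Of 8 genes that oppose shieldin by cutting ends back, 5 were lower and 1 higher in untreated OE cells. Of all genes, 33.3% were lower and 39.4% higher, so 72.7% were called in either direction. MRE11 was at -1.90, BLM at -1.52 and EXO1 at -1.13, and NBN was the higher one at 0.47 (adjusted p = 0.0109). At 24 h RBBP8 (CtIP), which starts end cutting, changed by -0.57 in EV (adjusted p = 0.0421), and EXO1 by 0.48 in OE (adjusted p = 0.00583). After removal of the trend, 2 of the 8 were higher and 1 lower in EV, and 2 were higher in OE. The share of all genes called in that fit is not given here, so these counts stand without a background. The 2 higher in EV were EXO1 (0.28, adjusted p = 0.00479) and BLM (0.28, adjusted p = 0.0352). Of 9 end-joining genes, 6 were lower and 1 higher in untreated OE cells (33.3% and 39.4% of all genes). LIG3 (-1.76), NHEJ1 (-1.72) and XRCC4 (-1.63) were among the lower ones. PAXX had a 24 h change of 0.69 in EV libraries, which was 0.18 and not called without the trend (adjusted p = 0.266), and of -0.73 in OE libraries, or -0.46 without it. Its difference between responses was -1.42 (adjusted p = 0.00368), or -0.64 (adjusted p = 0.00423) without the trend. Among 9 genes of fork remodelling, BRIP1, a helicase partner of BRCA1, rose by 0.83 in OE at 24 h (adjusted p = 0.0075), with a difference between responses of 1.20 (adjusted p = 0.00432), or 0.74 (adjusted p = 0.00156) without the trend. RADX, a single-stranded DNA binding protein of replication forks, had no count in EV and 132, 123 and 192 counts at the 3 times in OE libraries.

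Of the other Schlafen genes only SLFN12 and SLFN13 had enough counts to be tested. SLFN13 rose in OE libraries at 24 h, from 7.0 ± 0.714 to 13.6 ± 1.33 CPM (SD, n = 3 each, log2 0.96, adjusted p = 0.00646), and with no EV count at 24 h it was at least 229-fold higher in OE. SLFN12 had a difference between responses of 0.86 at 24 h (adjusted p = 0.0271), which was 0.60 and not called without the trend (adjusted p = 0.0509).

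ABCB1 was not the only export pump that separated the lines. ABCG2, the breast cancer resistance protein, was 171.1 ± 0.385 CPM in untreated EV and 0.540 ± 0.302 CPM in untreated OE libraries (log2 difference -8.29). Like ABCB1, ABCG2 passed the filter on low counts through the EV libraries and had to differ. ABCC2 (MRP2) was 313.3 ± 6.18 and 3.46 ± 0.890 CPM (log2 difference -6.50). ABCC3 (MRP3) was the 1 pump of the 6 tested that was higher in OE, at 106.4 ± 11.8 against 15.7 ± 1.52 CPM (log2 difference 2.76). The other 5 were lower (33.3% of all genes). ABCG2 is 1 of these 5 and had to differ, so the count of 5 cannot be set against that share. Under olaparib, ABCC2 and ABCC4 were lower in EV at 24 h (-0.49 and -0.54, or -0.35 each without the trend) and ABCC3 higher (0.42). In OE libraries ABCC2 rose by 0.73 (adjusted p = 0.00502) and ABCC4 changed by -0.49 (adjusted p = 0.0129). ABCB4, the closest relative of ABCB1, had 5 counts in EV and none in OE libraries.

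Among the 5 genes whose levels moved most like SLFN5 across the 18 libraries, each taken relative to its line, were SAMD9 (Pearson r 0.958), MXD1 (0.947), STS (0.945) and PARP9 (0.932), out of 12328 genes at 1 CPM or more in both lines. SAMD9 and PARP9 are known interferon-stimulated genes. SAMD9 went from 104.9 to 187.9 and 254.7 CPM in OE libraries and from 13.6 to 11.7 and 11.5 CPM in EV libraries at 0, 12 and 24 h. For SLFN11 the 5 were FTX (0.824), ZNF222 (0.803), RCAN3 (0.775), AKAP6 (0.774) and FBXO8 (0.769), with SLFN11 at few counts. The libraries share depth and GC trends, so these values only describe likeness.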

How the data were processed

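Total RNA was taken up in TRIzol and libraries were built with the NEBNext Ultra II kit. The authors deposited raw read counts per gene for 18 libraries. The submitters' processing notes name HISAT2, featureCounts, DESeq2 and GRCh38 (hg38), and strandedness and annotation release are not given in the sources used here. The 18 single tables equalled the joint table, and 99.78% of its 35044 identifiers matched a symbol. Counts were fitted with edgeR 4.0.16 (TMM scaling, filterByExpr, which kept 18335 genes, and the quasi-likelihood test with 1 mean per condition over all 18 libraries), and p-values were adjusted over all tested genes by Benjamini-Hochberg with a threshold of 0.05. The biological coefficient of variation was 12.9%. CPM used TMM-scaled totals. Libraries held 15081973 to 17571922 counts, so that 3 counts over a condition of 3 libraries were 0.0614 to 0.0623 CPM, and intervals cover counting error only. Exonic lengths, overlaps and GC content came from GENCODE 29. An exact permutation test of 3 against 3 libraries cannot go below p = 0.1, so none was used. Alternatives were DESeq2 1.42.0, its size factors, 2 other count filters, fits to the compared conditions only, blocking on replicate number, each library's GC and length trend as an offset (mgcv 1.9.3), a limit of 0.5 on the log2 fold change, and leaving out each library. The fits were tested on simulated counts.

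The members and lists were chosen with earlier results of these data known. All members are described, and from each list up to 3 called genes with the largest fold change per comparison. GGGCGG and CCAAT, and the stretch around SHLD2, were added after values were seen. Sequences are RefSeq's. Some genes are not reported here.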

Additional observations from a re-analysis of the deposited data

Results flagged for a closer look

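For 5 members, the 24 h responses to olaparib differed between the OE-labelled and EV-labelled libraries by the interaction term of edgeR's quasi-likelihood fit. The response in OE minus that in EV was 0.95 for RIF1, -0.95 for MAD2L2, -1.41 for SHLD1, 1.16 for SLFN5 and -1.02 for DYNLL1 on the log2 scale. With the GC and length trend of each library removed, the same values were 0.35, -0.37, -1.22, 0.67 and -0.86, and MAD2L2 was the 1 no longer called. Both lines carry their own untreated libraries, and the EV-labelled libraries hold almost no EPCAM or KRT5, markers of the labelled cells. Their part in these differences was not tested.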

How the results depend on the processing

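The number of members called moved by over 1.5 times under some alternatives. With no filter on low counts it was 1 (12 h EV), 5 (24 h EV), 3 (24 h OE) and 2 (12 h difference between responses), against 0, 3, 1 and 0. With the compared conditions alone it was 5 at 24 h in EV. DESeq2's Wald test gave 2 at 24 h in OE and 1 for the 12 h difference, the GC and length trend as an offset 3 and 2, and that trend with a replicate block 2 and 1. A minimum of 10 counts in every library removes SHLD2, ABCB1, SLFN11 and SHLD1 by construction. It left 6, 1 and 3 calls between the lines at 0, 12 and 24 h. Without SHLD2, ABCB1 and SLFN11, which had to differ, the fit to all libraries gave 7, 2 and 3 calls (10, 5 and 6 with all 10 genes). The share of all genes called under each alternative is not given here, so these counts of members stand without a background. Leaving out 1 library at a time gave 0 to 2 calls at 24 h in EV, 0 to 1 at 12 h and 1 to 4 at 24 h in OE, and 0 to 2 and 3 to 6 for the differences at 12 and 24 h. The EV 24 h count was 0 without EV replicate 1 or 3 at 0 h or EV replicate 1 at 24 h, and 1 without EV replicate 2 at 24 h. Same-numbered libraries correlated at -0.194 to 0.247 and are not known to be paired, and the replicate block alone left every count of members as it was (3 at 24 h in EV, 5 for the 24 h difference).

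Signs turned only for values that were not called, apart from H2AX in EV at 24 h (-0.03 with the GC and length trend, with or without the block). With that trend, with or without the block, SLFN5 in EV was 0.06 at 12 h and 0.13 at 24 h, TP53BP1 in EV at 24 h 0.05, and TP53BP1 between the lines -0.04 at 12 h and -0.13 at 24 h (-0.04 with no filter at 24 h). Without 1 library at a time, uncalled values ran across 0 for SLFN5 in EV at 12 h (-0.26 to 0.07), for TP53BP1 (-0.00 to 0.19), RIF1 (-0.05 to 0.35), MAD2L2 (-0.29 to 0.03) and SHLD1 (-0.11 to 0.19) in OE at 12 h, for TP53BP1 (-0.03 to 0.05), MAD2L2 (-0.31 to 0.16) and SLFN5 (-0.13 to 0.20) between the lines at 12 h, and for TP53BP1 at 24 h (-0.03 to 0.10). The cause was not tested. Over all settings 1696 values kept direction and side, 187 lost and 36 gained a call, and 28 turned. SLFN11, with 1 to 3 counts per EV condition, and SHLD1 and SHLD3, with 9 to 69 counts per library, are limited by depth.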
